A study of Mus musculus with 12 samples.

Results

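The genes described are those of the cytosolic ribosomal proteins, the protein components of the large and the small subunit of the cytoplasmic ribosome. Members were the array probes whose annotation gave 1 gene symbol beginning with Rpl or Rps and a number, or the symbols Rplp1, Rplp2 and Rpsa, with the kinases named Rps6k left out. The rule took 119 of 28704 probes and 63 of 10225 genes on the array. Of these, 80 probes of 40 genes belonged to the large subunit and 39 probes of 23 genes to the small subunit. Of the 119 probes, 112 had enough values to be fitted and covered all 63 genes. Another 3 probes had no value in any sample and 4 were measured in too few samples. The annotation lists Rps4l, 1 of the 63, as a transcribed pseudogene.

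The cells were MC3T3-E1, a clonal osteoblast-like line from mouse calvaria, with no genetic change given in the labels. The 6 shear samples came from confluent monolayers placed in a parallel plate chamber under flow that pulsed at 1 Hz for 5 h, at a mean shear stress of 5 dyn/cm2. The 6 control samples were kept static in the same apparatus. Both groups were grown in medium with 5% serum, and the medium of the flow circuit held 1%. Whether samples came from separate cultures is not stated in the labels. The p-values therefore cover the spread among these 12 samples alone, and that spread may be technical.

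A ribosome holds 1 copy of nearly every ribosomal protein, and the subunits are assembled in the nucleolus from these proteins and ribosomal RNA. Ribosomal protein messages are among the most abundant of growing cells, and in mammals nearly all begin with a run of pyrimidines, the terminal oligopyrimidine or TOP motif. Through that motif mTOR and the RNA-binding protein Larp1 control their translation, mostly without a change in message level. In osteoblasts, as in other secretory cells, ribosomes supply the synthesis of collagen and other matrix proteins.

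Sequence around the annotated transcription start was taken from RefSeq (build GRCm38.p6) for members with large or opposed changes below and for Rps6. Each line gives 30 bases, 15 on either side of the start, 5′ to 3′ on the transcript's strand, with the longest run of at least 7 C or T near the start in capitals where it falls in the window. Most of these windows show such a run, and those of Rpl6 and Rps13 do not. In the windows of Rpl13 and Rps15a the run ends upstream of the annotated start.
Rpl7a (chr2:26910792-26910821, plus strand): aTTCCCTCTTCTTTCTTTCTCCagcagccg
Rpl13 (chr8:123102335-123102364, plus strand): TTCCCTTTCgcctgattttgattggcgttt
Rpl15 (chr14:18270972-18271001, minus strand): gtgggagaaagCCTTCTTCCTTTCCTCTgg
Rps26 (chr10:128626492-128626521, minus strand): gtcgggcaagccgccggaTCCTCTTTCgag
Rps15a (chr7:118116133-118116162, minus strand): CTCTCTTTCTgccatcttccctcgccggtg
Rps6 (chr4:86857353-86857382, minus strand): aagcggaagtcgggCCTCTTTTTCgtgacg
Rpl6 (chr5:121204486-121204515, plus strand): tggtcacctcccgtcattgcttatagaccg
Rps13 (chr7:116334176-116334205, minus strand): gagagcaaacgtcggtgagtggcgtcactt

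Promoter sequence was matched for 49 of the 63 genes. A run of at least 7 C or T on the transcript's strand, within 25 bases of an annotated start, was found in 35 of the 49 (71.4%), against 38.3% of 27025 mouse genes in the same table. The letters CCGGAA, on either strand of the 300 bases around the start, were found in 26 of the 49 (53.1%), against 16.7% of all genes. The letters TATAAA, searched in the same way, were found in 3 (6.1%), against 15.7% of all genes. The windows of Rpl7a and Rpl15 thus carry long runs, while those of Rpl6 and Rps13 carry none of that length. A match describes these letters only, and a missing match says only that they are not in the window at the start that RefSeq gives.

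The deposited values are log2 values of net fluorescence over the median of a block of neighbouring probes, so 0 is the middle of a block and 1 is a doubling. Each of 6 two-colour arrays took 2 samples of the same group, taken here to be replicates 1 and 2, 3 and 4, and 5 and 6. Between 18434 and 23790 features had a value per sample, with the fewest in control replicates 3 and 4, taken to share an array. The number of arrays, 3 per group, limits the precision. Osteoblast markers with a value in control cells (8 of 15) had a median signal at the 87.8th percentile of all probes, and ran between 21.9 and 99.7. Sparc, a bone matrix protein, and the collagen chain Col1a2 were bright, at 99.7 and 98.6, while the phosphatase Alpl at 34.2 and the transcription factors Msx2 at 21.9 and Dlx5 at 67.0 were not. Runx2, Sp7 and Bglap were not analysed here. Macrophage and osteoclast markers (4 of 8) had a median percentile of 76.1, endothelial markers (4 of 6) of 53.7, adipocyte markers (3 of 5) of 45.1, chondrocyte markers (3 of 5) of 53.8 and muscle markers (4 of 5) of 52.6, the last with Tnnt1 at 97.8. Each marker was taken by its brightest probe, which favours genes with several probes. A percentile is that of a probe's brightness and does not rank transcripts.

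Ribosomal protein probes were among the brightest on the arrays. Their median control signal stood at the 97.8th percentile, with quartiles of 93.2 and 98.8, and 80 of the 112 fitted probes (71.4%) lay in the top 5%. Probes of the large and small subunit did not stand apart in this, with median percentiles of 97.9 and 97.8. The highest came from Rpsa, the small-subunit protein also known as the laminin receptor precursor, from Rps4x, an X-linked small-subunit protein, from Rpl23 and from Rps18. Of the fitted probes, 3 lay below the middle of the array, 1 each of Rpl7l1, Rpl5 and Rpl21. The brightest member value corresponded to a net fluorescence of 62845. With 65535 taken as the scanner ceiling, 1 of 1354 member values came within 5% of it. The scanner and background correction are not given, so saturation could not be judged from these net values. Many mouse ribosomal protein genes have near-identical processed copies, and the probes' own sequences were not used here. Signal from such copies and from the named gene cannot be told apart.

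Set against static controls, the ribosomal protein genes as a group stood close to the middle of all genes. With each gene taken as the median of its probes, 37 of the 63 genes had a change above 0 and 26 below, with a median log2 change (shear minus control) of 0.09 and quartiles of -0.25 and 0.35. Over all 8928 named genes fitted, 59.8% were above 0 and the median was 0.10, with quartiles of -0.17 and 0.37. Because values are relative to block medians, a shift shared by every gene would not show. In bulk RNA, a change in message per cell and a change in the makeup of the cells cannot be told apart either.

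Among single probes, 1 of 112 passed an adjusted p of 0.05 (limma, Benjamini-Hochberg over 21883 probes), a probe of Rpl7a, which was higher. No member passed as lower, with 12 at an unadjusted p under 0.05 in either direction. Over all probes 1.62% passed, 1.42% as higher and 0.201% as lower, so 1 call among 112 is close to that background. The 12 made 10.7% of the members, against 14.6% of all probes at that unadjusted threshold. Shear and control samples did not overlap in 2 member probes (1.79%), 1 of Rpl7a and 1 of Rpl7l1, against 7.94% of all probes. Changes ran between -2.02 and 2.78. Yet 15 members (13.4%) had a change of at least 1 on the log2 scale in either direction, against 6.22% of all probes. Large changes were thus more common among the members than over all probes, while the share of calls was close to the background. The median standard error of a member was 0.36 against 0.31 over all probes.

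**Figure D1:**
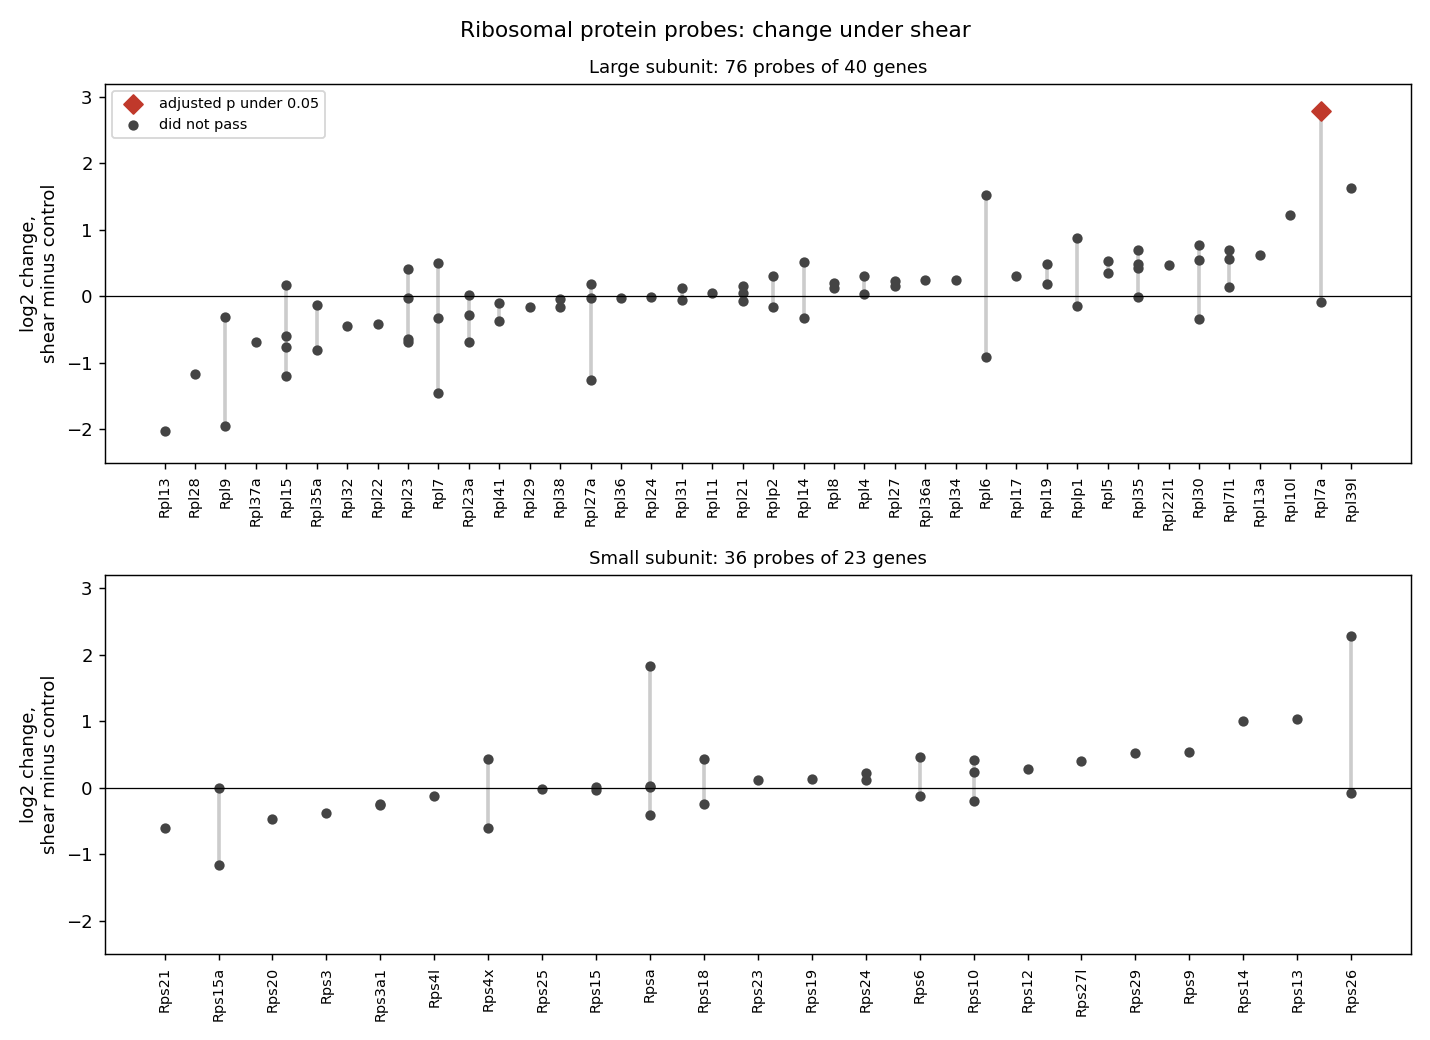
Log2 change (shear minus control, vertical axis) of each fitted ribosomal protein probe, with genes along the horizontal axis ordered by the median of their probes, for the 76 large-subunit probes and the 36 small-subunit probes in separate panels. Points of 1 gene share a column. Most lie within 0.5 of 0, and 1 Rpl7a probe at 2.78 passed.

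Of the 112 probes, 76 (67.9%) lay within 0.5 of 0 on the log2 scale, against 72.4% of all probes. The scale also moved with the centring. The median change of all probes was 0.10 as deposited, -0.02 after centring on the features measured in every sample and -0.01 after cyclic loess. The median of the ribosomal protein genes under these settings was 0.09, -0.05 and -0.10. Less the median of all probes it was thus -0.01, -0.02 and -0.09, which sets genes against probes. Counted by probe as deposited, the members had a median change of 0.02, against 0.10 over all fitted probes. The sign of the gene median by itself depended on the scaling.

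Taken by gene, the large and small subunits had nearly the same median change. The 40 large-subunit genes had a median of 0.06, with 23 above 0 and 17 below, and the 23 small-subunit genes had a median of 0.12, with 14 above and 9 below. The difference, large minus small, was -0.05, and over 30 alternative settings it stayed between -0.12 and 0.03, so its sign is not settled.

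The same was asked of each sample, over the 107 member probes measured in all 12 (71 large, 36 small). The median log2 signal of the large-subunit probes was 3.88, 4.06, 3.83, 3.72, 3.55 and 3.56 in shear samples 1 to 6, and 4.03, 3.93, 4.15, 3.91, 3.62 and 3.56 in control samples 1 to 6. That of the small-subunit probes was 4.21, 4.28, 4.23, 3.98, 4.19 and 4.16 in shear samples, and 4.11, 3.98, 4.36, 3.87, 4.12 and 3.81 in control samples. Both groups overlapped for either subunit. The large-subunit median averaged 3.77 ± 0.20 in shear and 3.87 ± 0.23 in control samples, and the small-subunit median 4.18 ± 0.10 in shear and 4.04 ± 0.20 in control samples (SD, n = 6 each).

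The gap between the subunits within a sample, large minus small, averaged -0.41 ± 0.18 in shear samples and -0.18 ± 0.19 in control samples (SD, n = 6 each). It ran between -0.64 and -0.23 in shear samples and between -0.50 and 0.04 in control samples. The groups overlapped, since both samples of the third control array, at -0.50 and -0.25, lay within the shear range. Over all 107 probes the median was 3.95 ± 0.11 in shear and 3.93 ± 0.21 in control samples, a difference of 0.02.

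**Figure D2:**
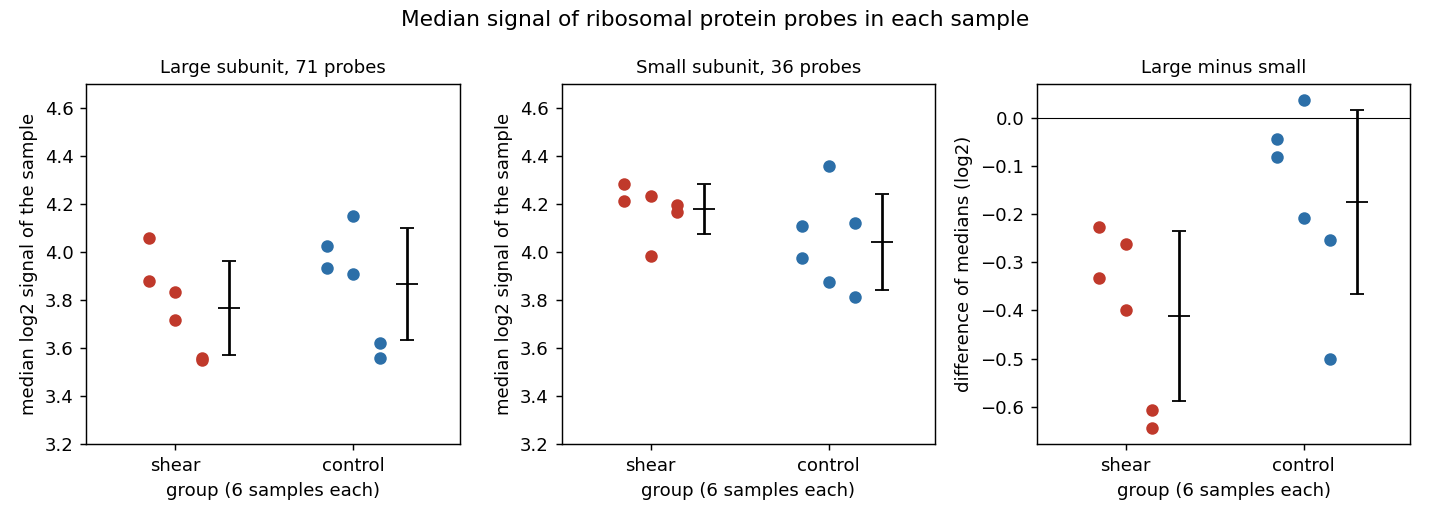
Median log2 signal per sample over the large-subunit and the small-subunit probes measured in all 12 samples, and the difference of these medians, with shear left of control in each panel. Points are samples, and bars are the mean ± SD of 6. Shear and control samples overlap in all 3 panels.

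Rpl7a (Entrez gene 27176) encodes a large-subunit protein of a family that binds kinked RNA. It was the 1 gene with a probe that passed, and its other probe gave no such difference. Probe 13214 measured 3.34, 3.93, 4.25, 4.16, 2.19 and 2.71 in shear samples 1 to 6, and 0.20, 0.82, -0.04, 0.32, 1.13 and 1.44 in control samples 1 to 6. All 6 shear samples lay above all 6 control samples on this probe. Its change was 2.78 ± 0.40 (SE, n = 6 per group), a 6.89-fold difference with an adjusted p of 0.00405 (limma).

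Probe 17998 is annotated with the same sequence accession. It measured 4.50, 5.17, 3.80, 4.0, 3.42 and 4.27 in shear samples, and 4.42, 4.59, 4.33, 4.76, 3.80 and 3.79 in control samples. The groups overlapped, and the change was -0.09 ± 0.34 (SE), with an adjusted p of 0.939. So a rise of the Rpl7a message rests on 1 of its 2 probes, and which of them reports that message was not tested. With both probes averaged per sample, Rpl7a had a change of 1.35 ± 0.29 (SE) and an adjusted p of 0.0391, in a fit where 1.36% of all features passed. With the gene represented by its brighter probe, 17998, no ribosomal protein gene passed, against 1.49% of all features in that fit.

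The call on probe 13214 held in 27 of the 27 alternative settings in which it was fitted, with changes between 2.40 and 3.27 and adjusted p between 5.26e-04 and 0.0475. The highest adjusted p came from averaging the samples of each array, which leaves 3 values per group. Each array held 1 group only, so shear and control were compared between arrays, 3 per group, and never within 1. A difference shared by the arrays of a group and an effect of shear cannot be told apart. The main fit enters arrays as random blocks, and p-values that count samples as independent can be too small.

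Such disagreement was common for genes with several probes on the same accession. Rpl6, a large-subunit protein, had probes 13188 and 17972, again with 1 accession. Probe 13188 measured 1.86, 2.31, 4.87, 4.76, 3.0 and 3.38 in shear samples, and 2.26, 2.72, 1.58, 1.28, 1.41 and 1.74 in control samples. Probe 17972 measured 2.85, 3.47, 2.90, 2.91, 3.10 and 3.33 in shear samples, and 4.33, 4.36, 4.46, 4.34, 3.25 and 3.32 in control samples. The first gave a change of 1.53 ± 0.52 and the second of -0.91 ± 0.31 (SE, n = 6 per group), each with an adjusted p of 0.174. Neither passed, and they pointed in opposite directions. Without the array of shear replicates 3 and 4, probe 13188 had a change of 0.81.

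Rpl7, another large-subunit protein, had 3 probes of 1 accession, with changes of -1.46, -0.32 and 0.50. Probe 15814, the first, measured 2.67, 3.32, 2.60, 2.37, 0.94 and 1.34 in shear samples, and 2.80, 2.75, 4.28, 4.03, 4.40 and 3.75 in control samples (adjusted p = 0.179). Its change was -0.93 without the array of shear replicates 5 and 6. The groups overlapped only through the first array of each. Probe 25382, the last, was lowest on the third control array, at 2.48 and 2.78, while the other 4 control samples lay between 4.87 and 5.58.

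Rpsa had 4 fitted probes, and 3 of them share an accession. Probe 14647 measured 5.29, 5.13, 5.50, 4.98, 5.30 and 5.44 in shear samples, and 0.00, -0.28, 5.41, 5.14, 5.33 and 5.01 in control samples. Both low values came from 1 control array, and the fitted change of 1.84 ± 0.96 (SE) did not pass, with an adjusted p of 0.408. Without that array it was 0.05. Probe 9863 of the same accession measured 5.75 and 5.39 in those 2 control samples, and its change was 0.02 ± 0.22.

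Rpl15, a large-subunit protein, had 4 probes, of which 3 share an accession. Probe 42 measured 5.01, 4.99, 4.35, 4.10, 0.91 and 1.34 in shear samples, and 4.61, 4.26, 4.85, 4.65, 5.00 and 4.54 in control samples. Probe 16, which lies 26 features away, was low in the same 2 shear samples, at 1.21 and 1.06. Probe 23936 of that accession measured 4.90 and 4.73 there. The changes were -1.20, -0.76 and 0.17 for these 3 probes, and none passed. Without the array of shear replicates 5 and 6, probe 42 had a change of -0.04.

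**Figure D3:**
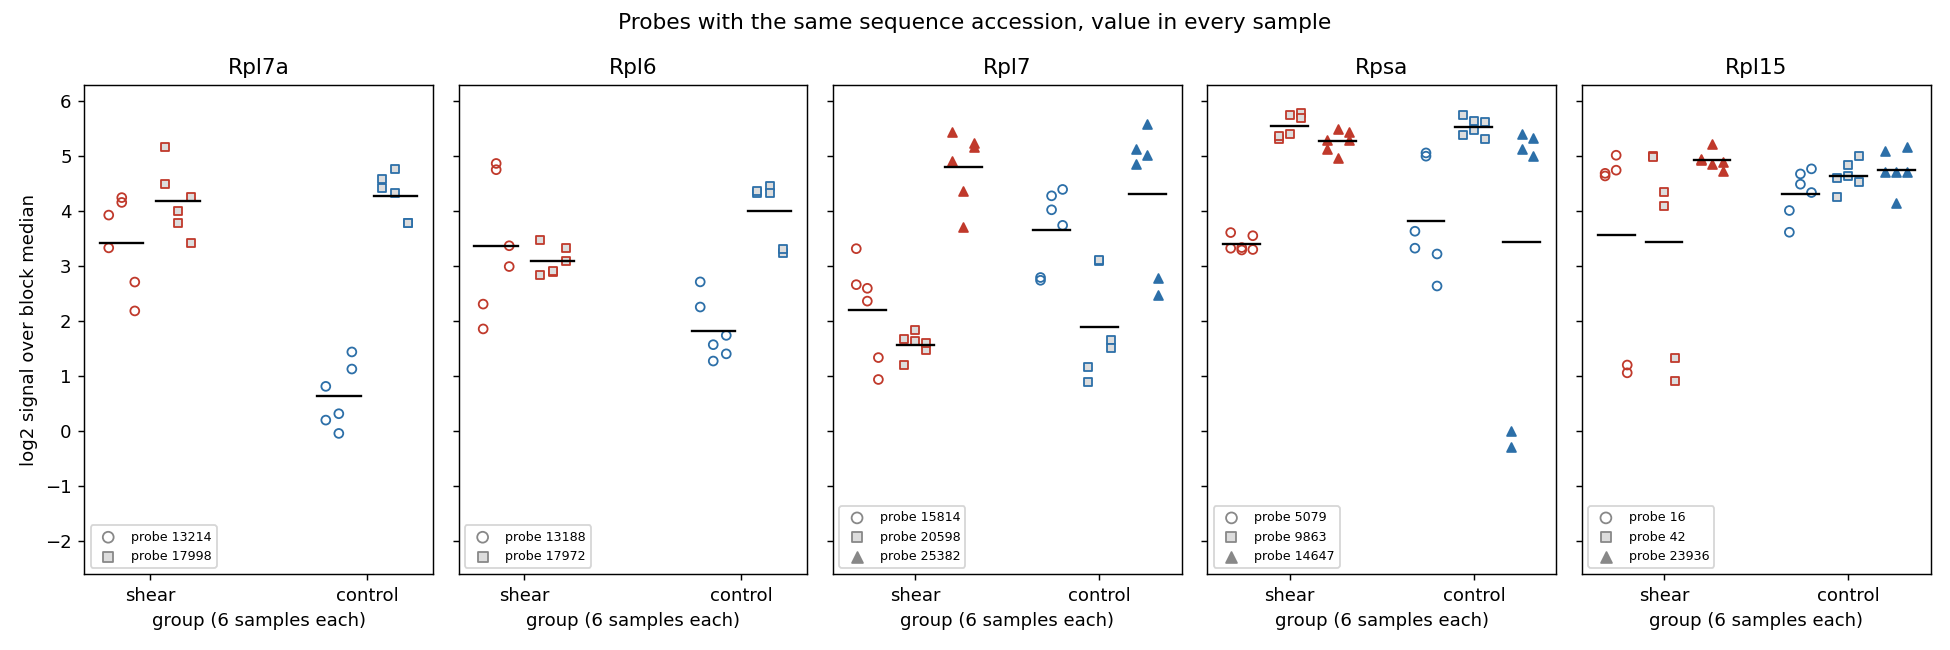
Log2 signal over the block median in every sample for probes annotated with 1 sequence accession, for Rpl7a, Rpl6, Rpl7, Rpsa and Rpl15, with shear left of control, 1 marker shape per probe and a bar at the mean of each group. For Rpl7a, probe 13214 parts the groups and probe 17998 does not. For Rpsa, the low values of probe 14647 come from the samples of 1 control array. For Rpl15, those of probes 16 and 42 come from the samples of 1 shear array.

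Agreement was counted over all pairs of fitted probes of the same member gene. There were 68 pairs in 34 genes, and in 33 pairs (48.5%) both changes had the same sign. For other genes the share was 66.1% of 9479 pairs. The median difference within a pair was 0.48 on the log2 scale for members and 0.31 for other genes. Across pairs, the changes had a Pearson correlation of 0.03 for members and 0.41 for other genes. These pairs share samples, and genes with several probes enter more than once, so these are descriptions only.

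Pairs on the same accession did not agree better. In 21 such pairs of 15 member genes, 8 (38.1%) had the same sign, the median difference was 0.93, and 10 (47.6%) differed by at least 1. For 47 member pairs on different accessions, 25 (53.2%) had the same sign and the median difference was 0.44. For 80 pairs of other genes on the same accession, 57 (71.2%) had the same sign, the median difference was 0.38 and 17.5% differed by at least 1. Members supplied 20.8% of all pairs of fitted probes on a shared accession. Of the 21 member pairs, 14 lay exactly 4784 features apart, which is 8 blocks, and 5 of these had the same sign. The Rpl7a and Rpl6 pairs are among the 14. Whether such pairs are repeat spots of 1 clone, or whether the annotation is out of step with the values there, could not be settled from the files. Each value is therefore that of the probe as the annotation names it.

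**Figure D4:**
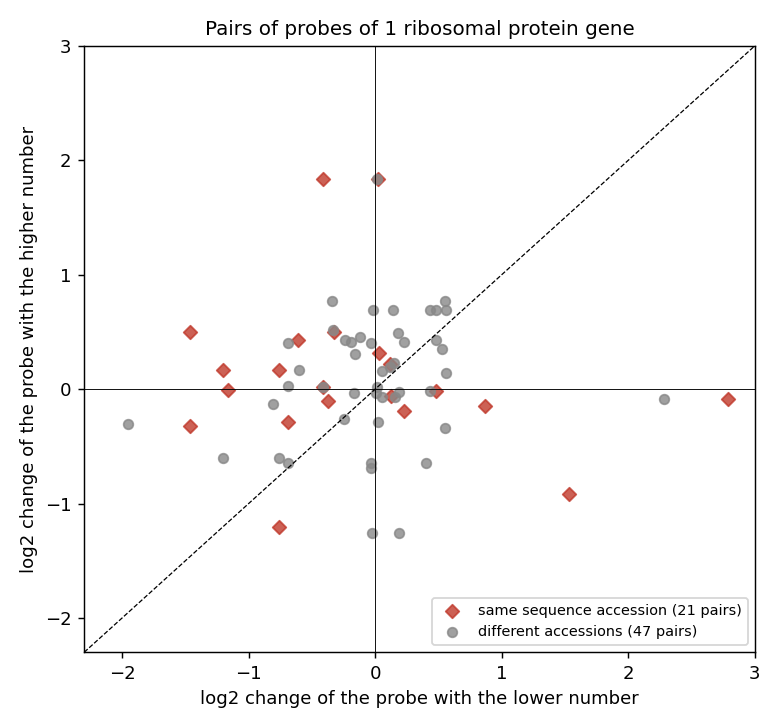
Log2 change (shear minus control) of both probes of each pair within a ribosomal protein gene, the lower-numbered probe on the horizontal axis, with 21 pairs on the same accession and 47 on different accessions. The dashed line marks equal changes. Points spread over all quadrants, with same-sign changes in 33 of 68 pairs.

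In all, 21 of the 34 genes with several fitted probes had changes of both signs, and in 13 genes the probes differed by at least 1. Among genes with opposed signs and a difference of at least 1 were also Rps26, Rplp1, Rps4x, Rpl23, Rpl27a and Rpl30. Rps26 lies at the exit of the messenger RNA channel of the small subunit, and its probes gave 2.29 and -0.08. Rps4x gave -0.61 and 0.43 with its probes on 1 accession. Rpl23 gave changes between -0.69 and 0.40 over 4 probes, Rpl27a between -1.26 and 0.18 over 3, and Rpl30 between -0.34 and 0.77 over 3.

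Agreement was closest for Rpl21 among genes with at least 3 fitted probes, with changes between -0.07 and 0.16. Rpl7l1 followed, between 0.14 and 0.70, then Rps10 between -0.19 and 0.41, Rpl35 between -0.02 and 0.69, Rpl23a between -0.69 and 0.03, and Rpl23 as above. None of these probes passed.

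Members with 1 fitted probe included several of the lowest and highest changes. Rpl13, a large-subunit protein, had the lowest, on probe 20549. It measured -0.40, -0.07, 1.38, 1.21, 0.02 and 0.10 in shear samples, and 2.20, 2.35, 4.67, 4.27, 0.66 and 0.23 in control samples. The change was -2.02 ± 0.71 (SE, n = 6 per group), with an adjusted p of 0.183. Control samples were spread by array, and those of the third control array lay within the shear range.

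Rps13, a small-subunit protein, measured 3.56, 4.11, 4.97, 4.50, 4.71 and 4.32 in shear samples, and 3.0, 3.0, 3.80, 3.30, 3.65 and 3.21 in control samples. The groups overlapped through the first shear sample and 2 control samples. The change was 1.04 ± 0.35 (SE), with an adjusted p of 0.170, the smallest among the members that did not pass.

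Rps15a, a small-subunit protein, had 2 fitted probes of the same accession. Probe 17281 measured 1.45, 1.97, 1.96, 2.26, 2.05 and 1.84 in shear samples, and 3.79, 3.86, 3.91, 3.43, 1.92 and 1.63 in control samples. The change was -1.17 ± 0.46 (SE), with an adjusted p of 0.244, and the third control array lay within the shear range. Probe 22065 gave a change of -0.01. Without the array of control replicates 5 and 6, probe 17281 had a change of -1.82 (adjusted p = 0.0325) and the Rpl13 probe one of -3.0 (adjusted p = 0.0355). In that fit 3 members passed, against 0.786% of all probes. Without the array of control replicates 3 and 4 the Rpl13 change was -0.99 (adjusted p = 0.415), and without that of control replicates 1 and 2 the Rps15a change was -0.80 (adjusted p = 0.494). Both changes thus depended on which control array was left out.

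Further changes beyond 1 on the log2 scale that did not pass came from probes of Rpl9 (13217, -1.95, with 4 control values), Rpl27a (22780, -1.26), Rpl28 (-1.17) and Rps14 (1.01). Rpl28 measured between -0.68 and 0.65 in shear samples. Its control samples lay between -0.41 and -0.22 on 2 arrays, but at 3.73 and 3.81 on the array of control replicates 3 and 4. Without that array the Rpl28 change was 0.20, of the opposite sign. With 1 array left out at a time, the Rpl9 change ran between -3.16 and -0.82, that of Rpl27a between -1.87 and -0.32 and that of Rps14 between 0.45 and 1.99. The smallest were without control replicates 3 and 4 for Rpl9 and Rps14, and without shear replicates 5 and 6 for Rpl27a.

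Single arrays decided several of these values, so the spread between arrays of 1 group was set beside that of other probes. For the 107 members measured in all samples, the median SD between arrays of a group was 0.49 on the log2 scale, against 0.34 over all 17080 probes measured in all samples. It was 0.34 for the 2336 probes in the top 10% of control signal, and 0.46 for the 90 members among these. The median SD between the samples of 1 array was 0.26 for members and 0.24 for all probes. The between-array SD was above 1 for 18 members (16.8%), against 3.05% of all probes and 7.71% of the brightest 10%. Members thus varied more between arrays than all probes and than the brightest 10%, and about as much within an array. Brightness was not matched within that 10%. What sets this spread was not tested.

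The widest was Rpl9 probe 24024, with a between-array SD of 2.89. It measured 5.51, 5.48, 5.74, 5.22, 0.75 and -0.70 in shear samples, and 5.98, 5.27, 1.43, 0.53, 5.78 and 4.86 in control samples. So it was low on 1 array of either group, and its change was -0.31 ± 1.28 (SE).

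Rps26 probe 6256 measured 5.03, 5.16, 5.46, 4.92, 4.95 and 4.64 in shear samples, and 3.51, 3.94, 0.02, -0.67, 5.15 and 4.49 in control samples. Its change of 2.29 ± 0.89 (SE) had an adjusted p of 0.238 and rested mostly on the array of control replicates 3 and 4. Without that array it was 0.75, and the third control array lay at the level of the shear arrays. Rpl23a probe 25541 was low on the first array of either group, with array means of 1.89 in shear and 2.75 in control samples. Its other arrays averaged between 5.16 and 5.43 in both groups.

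**Figure D5:**
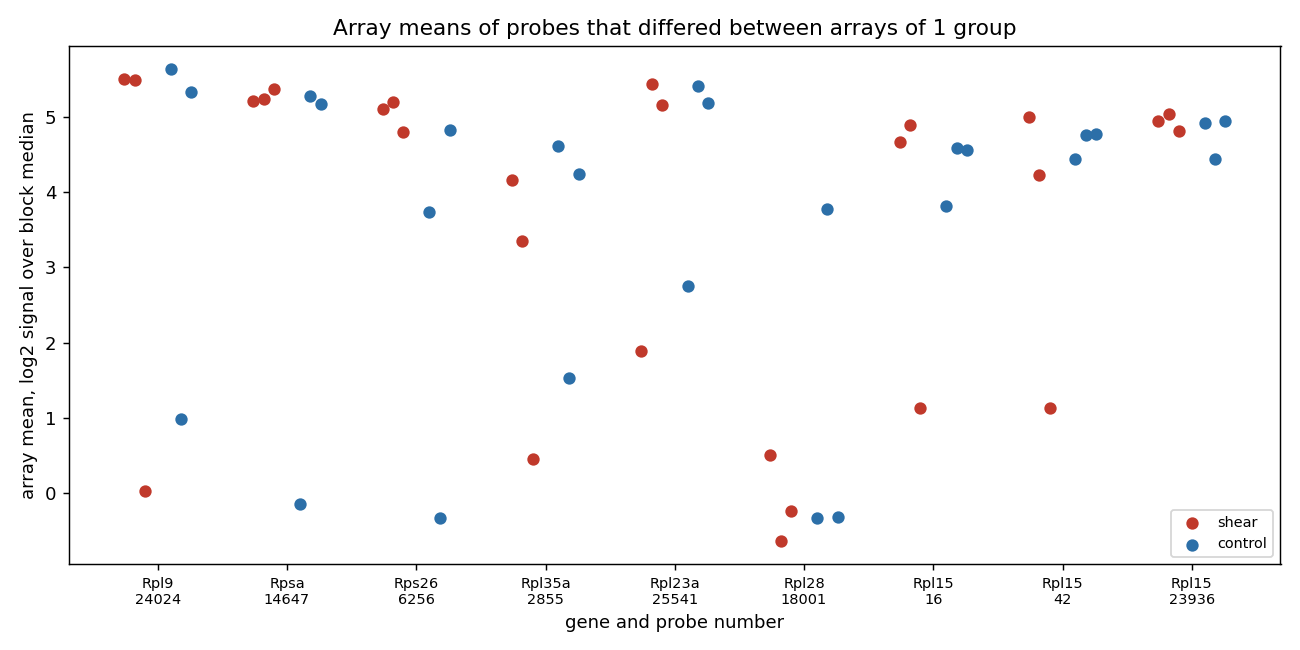
Mean log2 signal over the block median of each array (2 samples) for the 6 ribosomal protein probes with the largest between-array SD and for the 3 Rpl15 probes of 1 accession, with the 3 shear arrays left of the 3 control arrays for each probe. Rpl9 probe 24024 is low on 1 array of either group, and Rpl15 probes 16 and 42 are low on 1 shear array where probe 23936 is not.

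Members also did not move together from sample to sample. The profile of a member over the 12 samples had a median Pearson correlation of 0.09 with the median profile of the other members. It was above 0.5 for 10 of 107 probes and below 0 for 38. The probes nearest to the median profile were 1 each of Rpl23a, Rpl7, Rpl23, Rpl35a and Rplp1, with correlations between 0.66 and 0.76. Among 12523 named probes outside the set, those most like the members' median profile over the 12 samples were of 1110004F10Rik (0.89), Scp2 (0.85), 2610001J05Rik (0.85), Cyba (0.85) and Vps28 (0.84). Samples of an array share their hybridisation in these correlations.

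By role within the ribosome, no group held a probe that passed. The stalk proteins Rplp1 and Rplp2, which recruit elongation factors, had changes of 0.87 and -0.14 for Rplp1 and of -0.16 and 0.31 for Rplp2. Rpl5 and Rpl11 form a particle with 5S ribosomal RNA that can bind Mdm2 and so stabilise p53. The changes were 0.53 and 0.36 for the probes of Rpl5 and 0.06 for Rpl11. Around the exit of the peptide tunnel, 5 of 7 listed genes were fitted, with a median change of 0.31, against 0.10 over all named genes. The probes were of Rpl17 (0.31), Rpl19 (0.18 and 0.49), Rpl23a, Rpl31 (0.13 and -0.06) and Rpl35.

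Rps6, the substrate of the S6 kinases, had 2 fitted probes, with changes of 0.46 on probe 26542 and -0.12 on probe 10926. Of the genes whose human counterparts are mutated in Diamond-Blackfan anaemia, 13 of 19 listed were fitted with 28 probes. Of these genes, 10 (76.9%) were above 0 and 3 below, against 59.8% of all named genes above 0. Their median was 0.17, against 0.10 over all named genes, and none of the probes passed. Rps19, the human gene most often mutated in that disease, had a change of 0.13.

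None of the 8 fitted probes of paralogues, copies of ribosomal protein genes with restricted or alternative use, passed. Of 10 listed, 6 were fitted, 5 of them (83.3%) above 0, against 59.8% of all named genes. Their median change was 0.51, against 0.10 over all named genes. The 2 highest, Rpl39l and Rpl10l, rested on the array of control replicates 3 and 4. Rpl10l, a copy of Rpl10 used in mouse spermatogenesis, measured 2.95, 3.08, 2.81, 2.31, 3.37 and 3.15 in shear samples, and 1.89, 2.03, 0.67, -0.06, 3.03 and 2.75 in control samples. The groups overlapped and the change was 1.23 ± 0.49 (SE, adjusted p = 0.260), or 0.52 without that array.

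Rpl39l, a testis-biased copy of Rpl39, measured 1.93, 1.58, 1.35, 0.55, 2.10 and 1.75 in shear samples. It measured 1.33, 0.96, -3.06, 1.58 and 1.17 in the 5 control samples with a value, with 1 control sample far below the rest. The fitted change was 1.63 ± 0.83 (SE, adjusted p = 0.401), from 6 shear and 5 control values, and was 0.28 without control replicate 3. On probe 10592 of Rpl7l1 the shear samples lay between -0.56 and 0.23 and the control samples between -1.66 and -0.64. They did not overlap, and the change of 0.70 ± 0.30 (SE) had an adjusted p of 0.294.

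Rpl22l1 had a change of 0.47 beside -0.42 for its parent Rpl22. Rps27l, a copy of Rps27 that is induced by p53, had 0.41, and Rps4l had -0.13 beside -0.61 and 0.43 for Rps4x. The difference between a paralogue and its parent was not tested.

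Other genes of translation gave the setting. Fau, whose product is processed into a small-subunit protein, had changes of -0.60, -0.24 and -0.20, and none passed. Of 15 other genes with TOP messages, 13 were fitted with 36 probes, and none passed. Their median change was -0.07, with 5 genes (38.5%) above 0 and 8 below, against 59.8% of all named genes above 0. Mitochondrial ribosomal proteins had a median of 0.14 over 56 fitted genes, and none of 77 probes passed. Of these probes, 8 (10.4%) had an unadjusted p under 0.05 (limma), against 14.6% of all probes. Translation factors had a median of 0.24 over 46 fitted genes, and 5 of 113 probes passed, all higher. Over all probes 1.62% passed, 1.42% as higher.

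Of 15 listed regulators, 9 were fitted with 18 probes, of which 3 passed, all of Myc, against that background of 1.62%. Myc, a transcription factor that drives ribosome production, rose on these 3 of 4 probes, by 1.85, 1.81 and 1.76, and its last probe had a change of 0.38. Larp1 had changes of 0.30, 0.75 and 1.66, the last with an adjusted p of 0.0570. Mdm2 had changes of 1.07 and 1.21, Cdkn1a, a p53 target, of 1.11, and Mtor of 0.09, and none of these passed.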

How the data were processed

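Total RNA of 12 samples (6 shear, 6 control) was measured on 6 two-colour arrays. The authors deposited log2 values, 1 per feature and sample. In 576 of 576 combinations of 48 blocks and 12 samples, the linear values came out whole within 0.002 after 1 scaling (100% of values), so each is a net fluorescence over the median of a block of 598 features. No source used here gives the scanner, background correction or rule for missing values. Per the labels, odd replicates carried Cy5 and even ones Cy3. Which replicates shared an array (1 and 2, 3 and 4, 5 and 6) was inferred from the design and the dyes. Median net fluorescence per sample was 243 to 868.

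Names came from the platform annotation, updated through Entrez numbers: 18511 probes had 1 symbol, 937 several and 9256 none. The 36 probes with several symbols that included a ribosomal protein were not named. Samples were centred on their medians. Every probe with at least 4 of 6 values in each group was fitted with limma 3.58.1 (R 4.3.3, and the data.table package in version 1.17.8), with terms for group and dye and with arrays entered as random blocks (correlation 0.727). P-values were adjusted by Benjamini-Hochberg over 21883 probes at a threshold of 0.05, which called 354 (310 higher, 44 lower; 274 and 132 after centring on features measured in all samples, 288 and 118 with cyclic loess). Tables and figures used Python 3.11.15, numpy 2.4.6, pandas 2.3.3, scipy 1.17.1 and matplotlib 3.10.9. The main fit was also run on simulated data, drawn from the probe means, residual spread and array correlation of the real data. In that test, the main fit called 15% of 100 probes changed by 1 on the log2 scale and 75% of 100 changed by 2. A probe that did not pass can therefore still have changed. The simulation gave every probe the same array correlation. Members varied more between arrays than all probes did, so these shares may not hold for them.

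Probes and genes were named if they passed, were among the 8 highest or lowest changes or the 6 smallest p, had opposed probes differing by at least 1, had 3 or more closely agreeing probes, were brightest or dimmest, or stood in the lists of roles. Spread between arrays and likeness to the median profile added the probes of Rpl9, Rpl23a and Rpl35a after their values were seen. The members and lists were chosen with earlier results of these data known. Alternatives changed the normalization, the blocks, the dye term, the values required and the choice of probes, or left out samples and arrays.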

Additional observations from a re-analysis of the deposited data

Results flagged for a closer look

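In 11 of 232 groups of member values, 1 sample stood apart from the other 5 or fewer by Dixon's criterion. Chance flags about 1 group in 20, which would be about as many, and the 2 samples of an array are not independent. In shear samples, replicate 6 was lowest for Rpl35a probe 2855, at -1.95 with the nearest sample at 2.86. Replicate 5 was highest for Rplp1 probe 12150, at 4.04 against 3.38. Replicate 3 was highest for Rpl21 probe 15593, at 5.17 against 4.60, and for Rps15a probe 22065, at 5.02 against 3.71. Replicate 1 was lowest for Rpl35 probe 20731, at 0.13 against 0.62, and replicate 4 for Rpl41 probe 26086, at 4.07 against 4.62.

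In control samples, replicate 3 was highest for Rps10 probe 5911, at 4.45 with the nearest at 3.77, and lowest for Rpl39l probe 11637, at -3.06 against 0.96. Replicate 4 was lowest for Rpl7l1 probe 10592, at -1.66 against -0.89. Replicate 1 was lowest for Rpl15 probe 11884, at 1.13 against 2.80, and replicate 5 was highest for Rpl31 probe 21354, at 5.48 against 4.74. No cause was tested. The Rpl7a probe that passed was not among these values.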

How the results depend on the processing

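The count of member probes that passed was 1 in 26 of 29 alternative settings. It was 6 with no array block, where 12.2% of all probes passed and single samples count as independent, and 0 with 1 chosen probe per gene. The 6 were of Rpl7a, Rpl7, Rpl6 (17972), Rpl7l1, Rpl30 (20986) and Rps13. Leaving out samples or arrays gave 1 to 3, with 3 only without the array of control replicates 5 and 6. The median change of the genes was -0.10 with cyclic loess and otherwise between -0.05 and 0.16. Without the array of control replicates 3 and 4, which had the fewest values, it was 0.14. In that fit 1 probe passed (Rpl7a, 2.53, adjusted p = 0.0224), and Rpl28 turned to 0.20. Leaving out any array or sample gave -1.85 to 0.20 for Rpl28. The share of same-sign probe pairs was 45.6% to 59.4%. Of 437 alternative values of 16 named probes, 431 kept their direction and side of the threshold. Only the Rpl7a probe had passed in the main fit, so this count says little about the size of the other changes. Values counted as kept fell as far as -0.04 for Rpl15 probe 42 and 0.05 for Rpsa probe 14647. Over all probes, 354 calls became 2664 with no array block and 106 with arrays averaged, and 69 to 243 without 1 array.

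The groups share replicate numbers, but same-numbered samples did not deviate together (correlations of -0.09 to 0.12, own number highest for 1 of 6). With the replicate number as a block, 1 member passed (Rpl7a, 2.78, adjusted p = 0.0204) and 163 probes were called in all. Signal over background was not given in the sources used here, so dim probes such as those of Rpl7l1 and Rpl5 carry values whose reliability is unknown.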
